A study of Homo sapiens with 6 samples.

Results

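The genes described here are 33 genes of protein folding in the endoplasmic reticulum (ER), of ER-associated degradation and of the unfolded protein response, found by symbol among the 58825 Ensembl gene identifiers of 1 count table. All 33 have a row, and 32 passed the filter on low counts; DERL3 was at 0 in every library. RNA sequencing was done on FaDu, an established line of hypopharyngeal squamous carcinoma cells. In 3 libraries the title, FaDu, names no hairpin, and 3 libraries carried a short hairpin RNA against NSUN2 (labelled shNSUN2). NSUN2 is an RNA methyltransferase that places 5-methylcytosine on tRNAs and some other RNAs. No library is titled as carrying a non-targeting hairpin, so loss of NSUN2 and the presence of a hairpin cannot be told apart. No source used here says whether the hairpin cells were 1 clone or a pool. Nothing in the labels says that replicates came from separate cultures, so the p-values speak only of the spread among these libraries, and that spread may be technical.

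Secreted and membrane proteins enter the ER through the SEC61 channel and fold there with chaperones such as BiP (gene HSPA5), lectins that hold glycosylated chains (CALR, CANX), and oxidoreductases that form and rearrange disulfide bonds. Chains that fail to fold are sent back to the cytosol and degraded, a route that in mammals runs through the ubiquitin ligase HRD1 (gene SYVN1) and its partner SEL1L. When unfolded protein builds up, the sensors IRE1 (gene ERN1), PERK (gene EIF2AK3) and ATF6 start the unfolded protein response: IRE1 splices XBP1 mRNA, PERK phosphorylates the initiation factor eIF2α, and ATF6 is cut to release a transcription factor. Splicing of XBP1, phosphorylation and cleavage cannot be read from gene counts, so what follows concerns only the amount of each RNA.

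XBP1 and ATF6 are known to act through the ER stress response element (ERSE) and the related ERSE-II. Stretches holding these motifs are shown for HSPA5 and CALR, the best known targets, for HYOU1 with its repeated motif, and for the 3 members that passed the test between groups and hold one (SDF2L1, CRELD2 and ERO1B). The sequences are RefSeq promoter windows on GRCh38.p14, read 5′ to 3′ on the gene's own strand, and capitals mark the motif in either orientation.
HSPA5 (chr9:125241361-125241439, minus strand): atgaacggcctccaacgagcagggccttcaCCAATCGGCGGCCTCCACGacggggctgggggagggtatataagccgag
CALR (chr19:12938359-12938432, plus strand): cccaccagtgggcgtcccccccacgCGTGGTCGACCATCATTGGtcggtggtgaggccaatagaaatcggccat
HYOU1, far copy (chr11:119057350-119057420, minus strand): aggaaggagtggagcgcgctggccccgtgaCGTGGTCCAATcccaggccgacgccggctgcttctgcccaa
HYOU1, near copy (chr11:119057244-119057314, minus strand): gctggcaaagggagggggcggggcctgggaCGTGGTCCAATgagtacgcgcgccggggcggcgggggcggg
SDF2L1 (chr22:21642084-21642154, plus strand): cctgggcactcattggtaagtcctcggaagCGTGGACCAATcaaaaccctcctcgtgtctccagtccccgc
CRELD2 (chr22:49918524-49918602, plus strand): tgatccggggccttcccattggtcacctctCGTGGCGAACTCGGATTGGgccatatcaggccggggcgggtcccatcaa
ERO1B (chr1:236282153-236282208, minus strand): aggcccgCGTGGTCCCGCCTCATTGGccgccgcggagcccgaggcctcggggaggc

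The promoter table held windows for 30 of the 33 members; PDIA3, DERL1 and DERL3 had none. In the 250 bases before the start, the ERSE (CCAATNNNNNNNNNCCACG, both strands) was found in 8 of 30 members: XBP1, HSPA5, HSP90B1, CALR, CANX, CRELD2, PDIA6 and ERO1B. It was found in 26 of all 35116 promoters of the table, or 0.074%. For every motif, a member was counted once if any of its windows matched, while the promoters of the table were counted singly. The promoters of the table include the members' own windows, so the counts for members and for all promoters are not in the same unit and were not compared by a test. The ERSE-II (ATTGGNCCACG, both strands) was found in HYOU1, SDF2L1 and HERPUD1, and in 0.0513% of all promoters. The core shared by XBP1 and ATF6 (TGACGTGG) occurred in HYOU1 alone among the members, overlapping the far ERSE-II, and in 0.612% of all promoters. A CCAAT box, which is part of both elements, was present in 26 of 30 members and in 32% of all promoters. The short core of the amino acid response element, TGATG, was present in 9 of 30 members and in 28.8% of all promoters. These elements were first described in genes of this kind, and a match describes letters only, not a bound site. The 30 bases after the start were found in a GENCODE transcript of the gene for 31 of 38 member windows. Those of HSPA5, HYOU1 and CRELD2 were not found. With their flanks, the ERSE matches of HSP90B1 and CANX lay in annotated exons (79 and 78 of 79 bases). The matches of CRELD2 and PDIA6 lay inside the annotated gene.

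The gene targeted by the hairpin was read first. NSUN2 (ENSG00000037474, chromosome 5, 6599239 to 6633291) stood at 169, 173 and 156 CPM (counts scaled by the library total and edgeR's TMM factors) in the FaDu libraries and at 50.4, 34.7 and 39.6 in the shNSUN2 libraries, 25.1% of the FaDu mean. Its log2 fold change was -1.997 (SE 0.16, adjusted p = 0.000526 by edgeR's quasi-likelihood test with Benjamini-Hochberg adjustment over 19081 genes). By an exact permutation test (two-sided) p was 0.1, which is the lowest value possible with 3 libraries a group. Library totals ran from 53612358 to 72788971 estimated counts. Replicate 3 of shNSUN2 stood apart in base composition: across 19033 genes, the log2 ratio of replicate 3 to replicate 1 had a Spearman rho of 0.48 with the GC content of a gene and of -0.27 with exonic length, while replicates 1 and 2 differed at -0.07 and 0.07. Squamous markers were present in both groups, with all 11 of 11 detected. Their summed level was 5123 to 5181 CPM in FaDu and 3119 to 3616 CPM in shNSUN2. KRT17 and KRT5 were the most abundant over all libraries. At an adjusted p under 0.05 (edgeR), 8 of the 11 were lower in shNSUN2, 1 was higher and 2 did not pass, where 9.97% of all tested genes were lower.

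Of the 32 tested members, 4 were higher and 5 lower in shNSUN2 at an adjusted p under 0.05, and 23 did not pass. Among all 19081 tested genes, 18.5% passed, 8.54% as higher and 9.97% as lower, so the members' 9 of 32 stands beside a background in which calls were common. DNAJB11, SDF2L1, CRELD2 and SEC61B rose, and ERN1, CREB3L2, ERO1B, SYVN1 and EDEM1 fell. The median log2 fold change over the 32 members was 0.07, against -0.01 over all tested genes, and single values ran from -1.41 to 0.97. In 10 members every shNSUN2 library lay above every FaDu library, in 10 every one lay below, and in 12 the groups overlapped; over all tested genes the shares were 20.3% above and 22.1% below. With offsets for GC content and length, which move the median of all genes from -0.01 to 0.11, 9 members were higher and 5 lower, and over all genes 3381 were higher and 1927 lower in place of 1629 and 1903. Without FaDu replicate 1, 2 or 3 the number of members past the threshold was 4, 3 and 3, while the number of all genes past it went from 3532 to 1596, 1356 and 1354; DNAJB11, ERO1B and SYVN1 passed in all 16 alternative analyses.

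**Figure D1:**
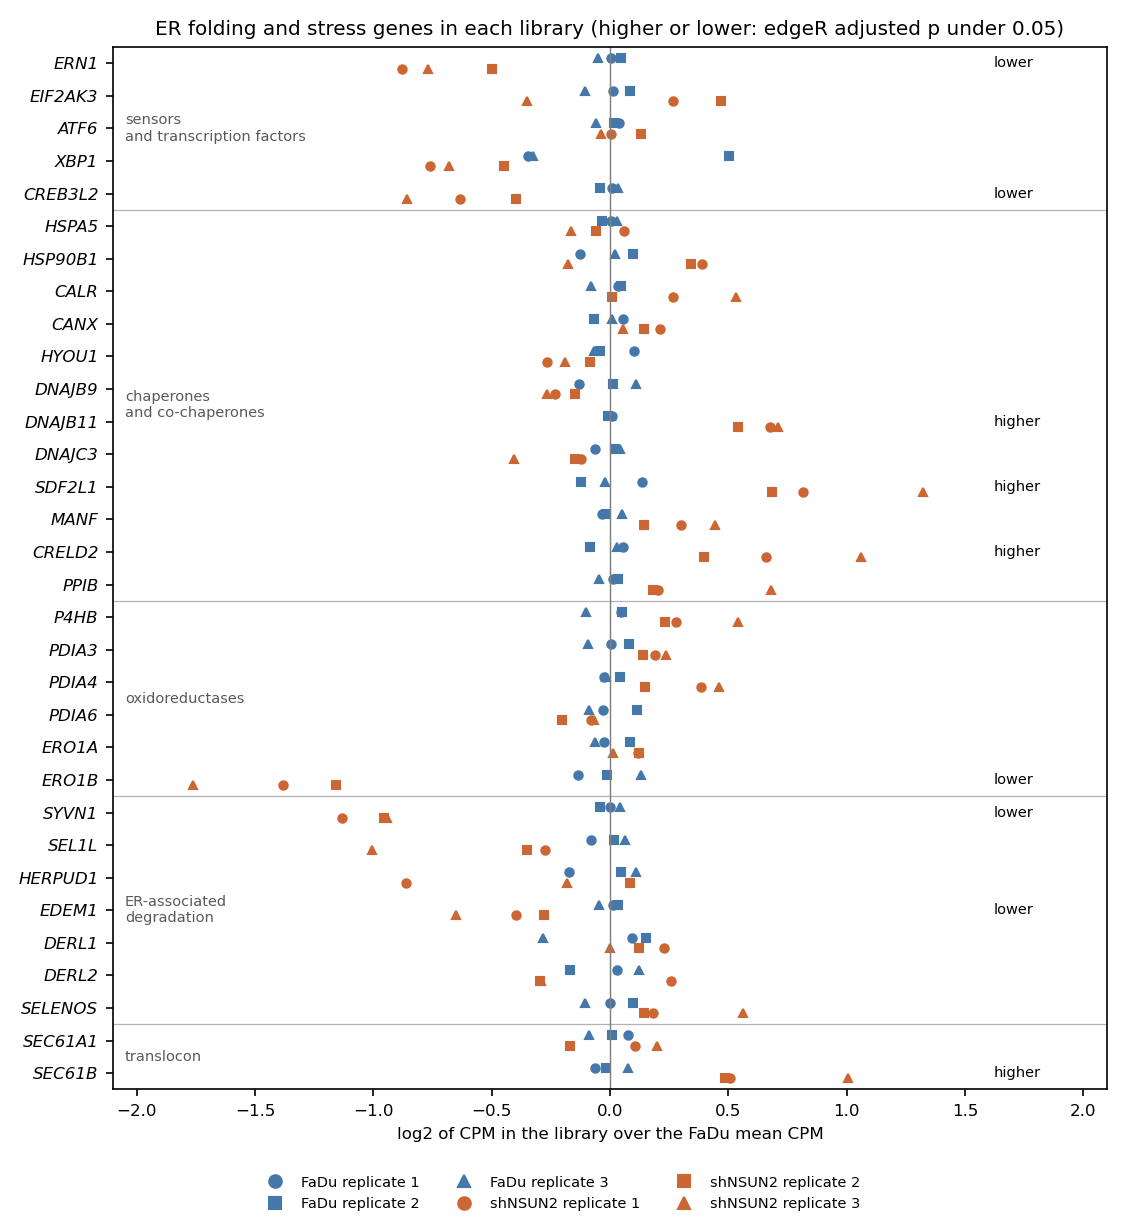
Level of each of the 32 detected members in each library, as log2 of its CPM over the FaDu mean CPM (horizontal axis), with genes grouped by role on the vertical axis, 1 point per library, a colour per group and a marker shape per replicate. The words at the right mark the genes past an adjusted p of 0.05. DNAJB11, SDF2L1, CRELD2 and SEC61B are above the FaDu mean in all 3 shNSUN2 libraries, and ERO1B has the lowest points.

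The 5 sensors and transcription factors had a median log2 fold change of -0.62; 2 fell and none rose. ERN1 (ENSG00000178607, chromosome 17, 64039142 to 64130819), the IRE1 kinase and endoribonuclease, stood at 28.5, 29.4 and 27.4 CPM in FaDu and at 15.5, 20.1 and 16.7 CPM in shNSUN2. Every shNSUN2 library was below every FaDu library, with a mean at 61.3% of the FaDu mean (log2 fold change -0.71, SE 0.14, adjusted p = 0.0144, edgeR). Without FaDu replicate 1, 2 or 3 the adjusted p of ERN1 was 0.0602, 0.0670 and 0.0567, with the direction kept.

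CREB3L2 (ENSG00000182158, chromosome 7, 137874979 to 138002067), a membrane-bound transcription factor related to ATF6 that is released by cleavage, stood at 30.3, 29.3 and 30.9 CPM in FaDu and at 19.4, 22.9 and 16.6 CPM in shNSUN2. The groups did not overlap, and its log2 fold change was -0.62 (SE 0.15, adjusted p = 0.0260, edgeR). Leaving out FaDu replicate 1, 2 or 3 or shNSUN2 replicate 1 took the adjusted p to 0.0904, 0.0857, 0.0994 and 0.0742.

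XBP1, the transcription factor activated by IRE1 splicing, stood at 61.7, 111 and 62.7 CPM in FaDu and at 46.3, 57.5 and 49.1 CPM in shNSUN2. The shNSUN2 libraries were all below FaDu, but FaDu replicate 2 was far above its own group, and the log2 fold change of -0.62 (SE 0.24) did not pass (adjusted p = 0.109, edgeR). Without FaDu replicate 2 it was -0.29 (adjusted p = 0.316). EIF2AK3 stood at 18.1, 19.1 and 16.7 CPM in FaDu and at 21.6, 24.8 and 14.1 CPM in shNSUN2. Replicate 3 of shNSUN2 was its lowest library and replicate 2 its highest, so the groups overlapped (log2 fold change 0.17, SE 0.21). ATF6, at 130 to 139 CPM in FaDu and 132 to 148 CPM in shNSUN2, had a log2 fold change of 0.03 (SE 0.11). The values of the sensors therefore lay apart for ERN1 and overlapped for EIF2AK3 and ATF6; the difference between sensors was not tested.

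The 12 chaperones and co-chaperones had a median log2 fold change of 0.25; 3 rose, none fell and 9 did not pass. The 3 that rose are helpers of BiP or small ER proteins. DNAJB11 (ENSG00000090520, chromosome 3, 186567403 to 186585800), the J-domain co-chaperone also called ERdj3, stood at 88.5, 87.6 and 88.3 CPM in FaDu and at 141, 128 and 144 CPM in shNSUN2. The shNSUN2 libraries were all well above a tight FaDu group, at 156% of its mean (log2 fold change 0.64, SE 0.11, adjusted p = 0.00719, edgeR).

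SDF2L1 (ENSG00000128228, chromosome 22, 21642261 to 21644298), which forms a complex with ERdj3 and helps keep client chains soluble, stood at 11.2, 9.39 and 10.1 CPM in FaDu and at 18.0, 16.4 and 25.6 CPM in shNSUN2. It had the largest increase among the members, to 196% of the FaDu mean (log2 fold change 0.97, SE 0.20, adjusted p = 0.0146, edgeR). It is the shortest of the members that rose, and replicate 3 of shNSUN2 was its highest library. Without that library the log2 fold change was 0.76 (adjusted p = 0.0112, edgeR). Without FaDu replicate 2 or 3 its adjusted p was 0.0675 and 0.0672.

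CRELD2 (ENSG00000184164, chromosome 22, 49918167 to 49927540), a secreted ER protein with disulfide isomerase activity that is induced by ER stress, stood at 125, 114 and 123.2 CPM in FaDu and at 191, 159 and 252 CPM in shNSUN2. The groups did not overlap, and replicate 3 of shNSUN2 was again highest (log2 fold change 0.73, SE 0.17, adjusted p = 0.0236, edgeR). Without it the log2 fold change was 0.54 (adjusted p = 0.0129, edgeR). The adjusted p of CRELD2 was 0.0738, 0.0977 and 0.0888 on leaving out FaDu replicate 1, 2 or 3, and 0.0588 on leaving out shNSUN2 replicate 1. Of its exonic bases, 3.25% are shared with ALG12 on the other strand, which stood at 58.9 CPM in FaDu and 80.9 CPM in shNSUN2; without strand information their shared reads cannot be told apart.

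The abundant chaperones did not pass. HSPA5, or BiP, the Hsp70 of the ER and the usual first readout of the unfolded protein response, stood at 829, 806 and 843 CPM in FaDu and at 861, 793 and 737 CPM in shNSUN2. The groups overlapped, and the log2 fold change was -0.05 (SE 0.10, adjusted p = 0.765, edgeR); it was 0.06 with offsets for GC content and length. HSP90B1, or GRP94, the Hsp90 of the ER, stood at 700.2, 818 and 775 CPM in FaDu and at 999.9, 970.4 and 676 CPM in shNSUN2. Replicate 3 of shNSUN2 was below every FaDu library while the other two were above. HSP90B1 had a log2 fold change of 0.21 (adjusted p = 0.417), and of 0.37 without that replicate (adjusted p = 0.0256, edgeR).

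CALR, the soluble lectin chaperone calreticulin, stood at 682, 688 and 630.4 CPM in FaDu and at 803, 671 and 963 CPM in shNSUN2, and CANX, its membrane-bound counterpart calnexin, at 985 to 1073 CPM in FaDu and 1072 to 1196 CPM in shNSUN2. Both groups overlapped for each gene. PPIB, the proline isomerase cyclophilin B, stood at 488, 495 and 468 CPM in FaDu and at 557, 548 and 775 CPM in shNSUN2, above FaDu in every library but with a log2 fold change of 0.37 (SE 0.15) that did not pass (adjusted p = 0.123, edgeR). Replicate 3 of shNSUN2 was the highest library for CALR and PPIB; without it the log2 fold change went from 0.28 to 0.15 for CALR and from 0.37 to 0.19 for PPIB. MANF, an ER-resident factor that binds BiP and is secreted under stress, likewise lay above FaDu in every library, at 68.7 to 72.97 CPM against 77.7 to 95.8 CPM (log2 fold change 0.30, adjusted p = 0.126, edgeR).

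On the other side, 3 of the 12 chaperone genes had every shNSUN2 library below FaDu and did not pass the test. Over all tested genes the share below was 22.1%. They were HYOU1, the nucleotide exchange factor of BiP, at 403 to 453 CPM in FaDu and 351 to 398 CPM in shNSUN2; DNAJC3, the co-chaperone p58IPK, at 52.6 to 56.6 against 41.5 to 50.6 CPM; and DNAJB9, or ERdj4, at 10.3 to 12.2 against 9.39 to 10.2 CPM. Their log2 fold changes were -0.18, -0.22 and -0.21, and with offsets for GC content and length they were -0.07, -0.07 and -0.08. Of the J-domain partners of BiP, DNAJB11 rose, and DNAJB9 and DNAJC3 had lower means that did not pass. The difference between them was not tested.

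Set against BiP, per length and within each library, the level of DNAJB11 was 7.29, 7.41 and 7.14 RPKM per 100 RPKM of HSPA5 in FaDu and 11.2, 11.03 and 13.3 in shNSUN2 (RPKM is CPM per kilobase of annotated exon; these ratios were chosen after values had been seen and carry no test). The ratio was higher in every shNSUN2 library. The ratio of DNAJC3 to HSPA5 was 4.44, 4.83 and 4.69 in FaDu and 4.10, 4.37 and 3.94 in shNSUN2, lower in every library. SDF2L1 per 100 RPKM of its partner DNAJB11 was 66.2, 55.9 and 59.5 in FaDu and 66.8, 66.9 and 92.8 in shNSUN2, where replicate 3 stood apart and the other 2 libraries lay just above the highest FaDu value.

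The 6 oxidoreductases had a median log2 fold change of 0.14; 1 fell and 5 did not pass. ERO1B (ENSG00000086619, chromosome 1, 236215555 to 236281985), an oxidase that passes electrons from protein disulfide isomerase to oxygen and is best known from pancreatic beta cells, stood at 12.8, 13.9 and 15.4 CPM in FaDu and at 5.39, 6.30 and 4.15 CPM in shNSUN2. It had the largest fall among the members, to 37.6% of the FaDu mean, with no overlap (log2 fold change -1.41, SE 0.19, adjusted p = 0.00335, edgeR). Its widely expressed paralogue ERO1A stood at 143, 154 and 139 CPM in FaDu and at 157, 158 and 147 CPM in shNSUN2 (log2 fold change 0.08, SE 0.11, adjusted p = 0.622, edgeR). ERO1B per 100 RPKM of ERO1A was 12.6, 12.7 and 15.6 in FaDu and 4.82, 5.61 and 3.98 in shNSUN2, so the minor oxidase made up a smaller part of the pair in every shNSUN2 library.

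Of the 4 protein disulfide isomerases, P4HB (also a subunit of collagen prolyl hydroxylase), PDIA3 (the partner of the lectin chaperones) and PDIA4 lay above FaDu in every shNSUN2 library. P4HB stood at 1008, 1008 and 908 CPM in FaDu and at 1181, 1147 and 1419 CPM in shNSUN2 (log2 fold change 0.36, SE 0.12, adjusted p = 0.0739, edgeR). PDIA4 stood at 327, 343 and 329.9 CPM in FaDu and at 435, 369.7 and 459 CPM in shNSUN2 (log2 fold change 0.34, SE 0.12, adjusted p = 0.0787, edgeR; 0.0405 without shNSUN2 replicate 2). PDIA3 had a log2 fold change of 0.19 (SE 0.10). PDIA6, at 392 to 451 CPM in FaDu and 363 to 398 CPM in shNSUN2, overlapped between groups, with a log2 fold change of -0.12 (SE 0.11).

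The 8 genes of ER-associated degradation included 7 tested members, with a median log2 fold change of -0.27; 2 fell and none rose. SYVN1 (ENSG00000162298, chromosome 11, 65121780 to 65134533), the HRD1 ubiquitin ligase, stood at 37.2, 36.1 and 38.3 CPM in FaDu and at 17.0, 19.2 and 19.3 CPM in shNSUN2. Both groups were tight and far apart, at 49.7% of the FaDu mean (log2 fold change -1.01, SE 0.12, adjusted p = 0.00211, edgeR). Part of its exons is shared with other genes: 7.24% with FAU on the same strand, at 166 CPM in FaDu and 250.3 CPM in shNSUN2, and 6.48% with MRPL49 on the other strand, at 54.4 and 84.2 CPM. The part of reads from the shared bases in the SYVN1 counts was not tested.

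SEL1L, which anchors HRD1, stood at 287, 307 and 317 CPM in FaDu and at 251, 238 and 151 CPM in shNSUN2. All shNSUN2 libraries were below FaDu, with replicate 3 lowest. The log2 fold change of SEL1L was -0.51 (SE 0.19, adjusted p = 0.0996, edgeR), and without shNSUN2 replicate 3 it was -0.31 (adjusted p = 0.0333). SYVN1 per 100 RPKM of SEL1L was 22.6, 20.5 and 21.0 in FaDu and 11.8, 14.0 and 22.3 in shNSUN2, so the groups overlapped through replicate 3.

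EDEM1 (ENSG00000134109, chromosome 3, 5187646 to 5219957), a mannosidase-like protein that routes glycoproteins to degradation, stood at 161, 164 and 155 CPM in FaDu and at 121, 132 and 102 CPM in shNSUN2. The groups did not overlap, but the adjusted p of 0.0485 (log2 fold change -0.43, SE 0.13, edgeR) lay close to the threshold. EDEM1 passed in 7 of 16 alternatives, and not without FaDu replicate 1, 2 or 3 (adjusted p = 0.150, 0.164 and 0.131) or shNSUN2 replicate 1 (0.0988). With offsets for GC content and length its adjusted p was 0.0525.

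The other degradation genes did not pass. HERPUD1, a stress-induced membrane protein that binds HRD1, was spread widely in shNSUN2, at 43.3, 83.3 and 69.3 CPM against 69.8, 81.2 and 84.8 CPM in FaDu (log2 fold change -0.27, SE 0.23; -0.04 without shNSUN2 replicate 1). SELENOS, a selenoprotein that links the p97 ATPase to the membrane, stood at 143, 153 and 133 CPM in FaDu and at 163, 158 and 211 CPM in shNSUN2, above FaDu in every library (log2 fold change 0.31, SE 0.14, adjusted p = 0.170, edgeR; 0.17 without shNSUN2 replicate 3). DERL1 (152 to 205 CPM in FaDu, 184 to 216 CPM in shNSUN2) and DERL2 (16.8 to 20.6 CPM and 15.4 to 22.6 CPM), channel-like proteins of the same machinery, overlapped between groups. DERL3, the remaining member of that family, was listed at 0 in all 6 libraries; 77% of its exonic bases overlap SMARCB1 on the other strand.

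Of the 2 subunits of the SEC61 channel, SEC61B rose. SEC61B (ENSG00000106803, chromosome 9, 99222064 to 99230615), the small beta subunit, stood at 39.0, 40.3 and 43.0 CPM in FaDu and at 57.8, 57.0 and 81.9 CPM in shNSUN2. The groups did not overlap and replicate 3 was highest (log2 fold change 0.69, SE 0.17, adjusted p = 0.0261, edgeR; 0.50 without replicate 3, adjusted p = 0.0105). Without FaDu replicate 1, 2 or 3 its adjusted p was 0.0965, 0.0984 and 0.0864. SEC61A1, the pore-forming subunit, stood at 336, 321 and 301 CPM in FaDu and at 344, 284 and 367 CPM in shNSUN2, with overlap (log2 fold change 0.05, SE 0.13).

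**Figure D2:**
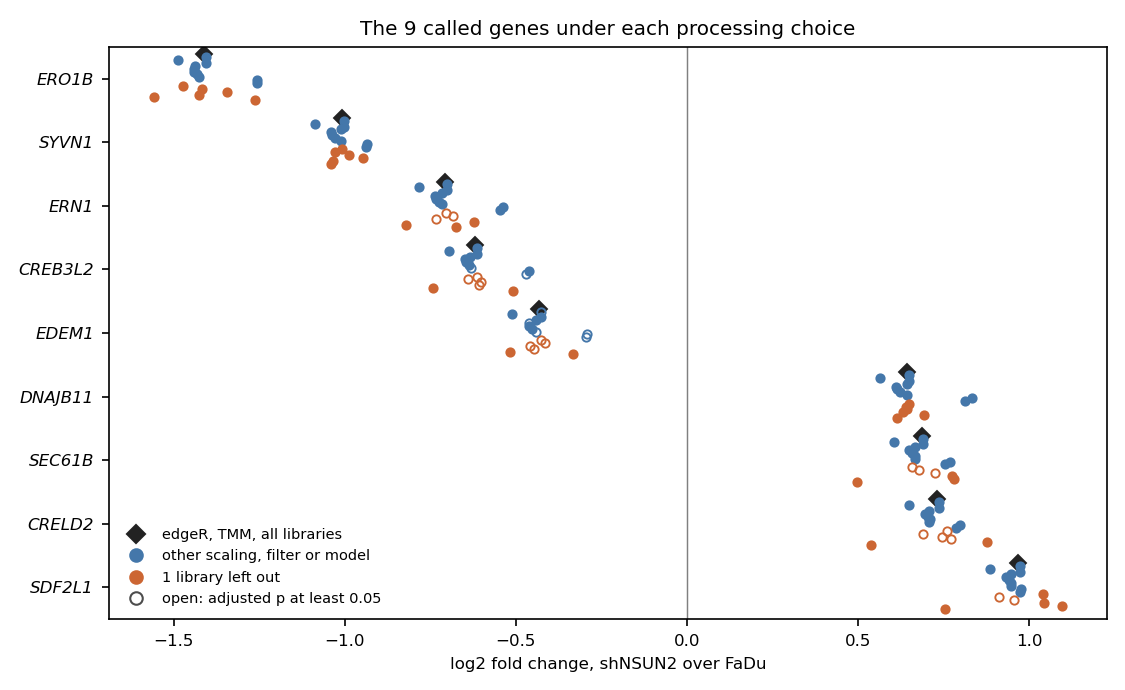
Log2 fold change (shNSUN2 minus FaDu, horizontal axis) of the 9 members that passed the test, under the main analysis and 16 alternatives, with filled points past an adjusted p of 0.05 and open points not past; the colours separate the main analysis, changes of scaling, filter or model, and analyses that leave out a library. DNAJB11, ERO1B and SYVN1 are filled in every alternative, EDEM1 in 7 of 16, and no value of the 9 genes crosses 0.

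Per length, the highest members were chaperones and disulfide isomerases, and the lowest included ERN1 and EIF2AK3, while ATF6 (17.2 RPKM in FaDu) and XBP1 (25.9 RPKM) lay in the middle of the order. In FaDu the order began with PPIB (253 RPKM), CALR (246), HSPA5 (211), P4HB (184), CANX (166), HSP90B1 (163) and PDIA3 (113). It ended with DNAJB9 (3.98 RPKM), CREB3L2 (3.43), EIF2AK3 (3.31), DERL2 (2.96), and ERO1B and ERN1 (both 2.62), above DERL3 at 0. Between neighbours in this order, 14 of 32 pairs did not overlap across FaDu libraries. In the separate order by shNSUN2 means, 9 of 32 pairs of neighbours did not overlap across shNSUN2 libraries. The place of most genes relative to the next was therefore within the spread. Of the 9 that passed, SEC61B (34.2 RPKM in FaDu, 55.1 in shNSUN2) was the most abundant and ERN1 and ERO1B the least.

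**Figure D3:**
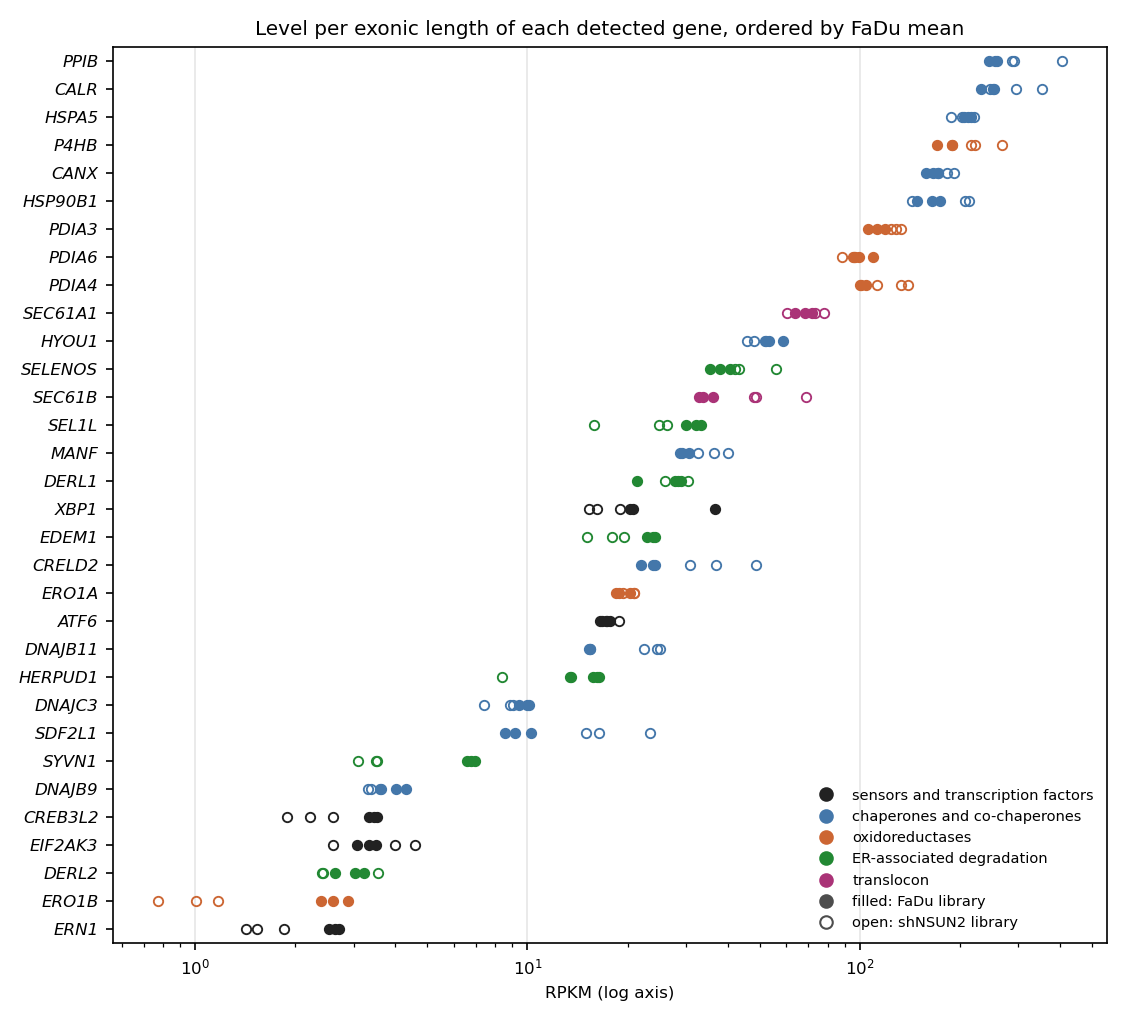
Level per length of the 32 detected members in RPKM (horizontal log axis), ordered by the FaDu mean, with 1 point per library, filled for FaDu and open for shNSUN2, and a colour per role. PPIB, CALR and HSPA5 have the highest FaDu means, while ERN1 and ERO1B have FaDu means of 2.62 RPKM and lower points in shNSUN2.

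Mean summed levels were higher in shNSUN2 for some roles and lower for others, and in some roles the groups overlapped. The 12 chaperones together gave 4551 ± 29.96 CPM in FaDu and 5129 ± 153 CPM in shNSUN2 (SD, n = 3), and the 6 oxidoreductases 2362 ± 123 and 2759 ± 213 CPM. The degradation genes gave 926 ± 32.7 and 811 ± 51.1 CPM, and the sensors and transcription factors 291 ± 31.1 and 247 ± 23.6 CPM. For the sensors and transcription factors the groups overlapped, at 278, 326 and 268 CPM in FaDu and 239, 274 and 229 CPM in shNSUN2. The highest of these sums was that of FaDu replicate 2, where XBP1 was far above its own group. The translocon genes gave 375, 361 and 344 CPM in FaDu and 402, 341 and 449 CPM in shNSUN2, also with overlap. All members together were at 8490 ± 207 CPM in FaDu and 9344 ± 309 CPM in shNSUN2, a ratio of 1.10. These sums carry no test. Abundant genes make up most of each: HSPA5, HSP90B1, CALR and CANX among the chaperones, and P4HB and the PDIA genes among the oxidoreductases. Among the degradation genes they are SEL1L, DERL1, EDEM1 and SELENOS, among the sensors and transcription factors ATF6 and XBP1, and for the translocon SEC61A1. In bulk libraries, fewer cells expressing a gene and less RNA per cell cannot be told apart.

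The promoter elements did not go with 1 direction. Of the 11 members with an ERSE or ERSE-II, 2 rose (SDF2L1 and CRELD2), 1 fell (ERO1B, whose element is shown above) and 8 did not pass, with a median log2 fold change of -0.05. Of the 19 without either, 2 rose, 4 fell and 13 did not pass, with a median of 0.05. HSPA5, CALR and HYOU1, whose elements are shown beside those of the genes that passed, had log2 fold changes of -0.05, 0.28 and -0.18. Across the 32 tested members, which share libraries, the log2 fold change had a Spearman rho of 0.34 with GC content and -0.51 with exonic length. SDF2L1 and SEC61B, the shortest members at 1099 and 1190 exonic bases, both rose and were both highest in replicate 3 of shNSUN2; the part of length and GC content in these results was not tested beyond the offsets given above, under which both still passed.

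Of 145 other genes of these routes, in 8 lists, 139 were tested; 19 were higher, 15 lower and 105 did not pass, with a median log2 fold change of 0.10. Over all tested genes 8.54% were higher and 9.97% lower, and the counts of each of the 8 lists stand beside these shares. No list was tested against them. With offsets for GC content and length the split was 40 higher and 15 lower, beside 3381 higher and 1927 lower of all 19081 genes under the same offsets and 1629 and 1903 without them. Leaving out FaDu replicate 1, 2 or 3 or shNSUN2 replicate 1 left 14, 8, 11 and 18 past the threshold. The number over all genes was then 1596, 1356, 1354 and 2069. Lower calls then outnumbered higher ones, with 4, 2, 3 and 8 higher and 10, 6, 8 and 10 lower. Over all genes 626, 478, 493 and 886 were higher and 970, 878, 861 and 1183 lower. With a replicate block 8 were higher and 11 lower, beside 969 and 1401 of all genes. Without shNSUN2 replicate 2 or 3, 18 and 24 were higher and 13 and 11 lower. The 12 genes of the PERK arm and its transcription factor ATF4 had 1 higher and 4 lower. ASNS, asparagine synthetase, stood at 356, 352 and 370 CPM in FaDu and at 108, 191 and 110.3 CPM in shNSUN2 (log2 fold change -1.40, SE 0.22, adjusted p = 0.00592, edgeR). TRIB3, a pseudokinase that restrains the pathway, fell by 1.09 on the log2 scale (adjusted p = 0.00886) and NUPR1, a stress-induced chromatin protein, by 1.31 (adjusted p = 0.0154). CHAC1, which degrades glutathione, rose by 0.89 (adjusted p = 0.0215). ATF4 itself stood at 1391, 1269 and 1202 CPM in FaDu and at 1122, 1445 and 1366 CPM in shNSUN2 (log2 fold change 0.03, SE 0.13, with the sign changing in 6 of 16 alternatives). DDIT3, or CHOP, the factor tied to death under lasting stress, stood at 26.9, 54.03 and 32.2 CPM in FaDu and at 13.8, 20.6 and 29.8 CPM in shNSUN2, which overlapped (log2 fold change -0.82, SE 0.34, adjusted p = 0.140, edgeR). The few genes of this list that passed were mostly lower, while CHAC1 rose and ATF4 did not pass. Over all tested genes 9.97% were lower.

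Of 27 genes of the translocon, signal peptidase and oligosaccharyltransferase, 6 were higher and 1 lower, with a median log2 fold change of 0.33. Over all tested genes 8.54% were higher and 9.97% lower. The higher ones included SSR4 (0.81, adjusted p = 0.00396), a subunit of the translocon-associated complex, and STT3A and RPN1 (0.56 and 0.48, adjusted p = 0.0153 and 0.0321), subunits of the oligosaccharyltransferase. SSR1, of the same translocon-associated complex as SSR4, fell by 1.01 on the log2 scale (adjusted p = 0.0255, edgeR). Of 15 tested other oxidoreductases, 4 were higher and none lower: PRDX4, an ER peroxiredoxin (0.71), TXNDC5, a disulfide isomerase (0.59), GPX8, an ER peroxidase (0.59), and TMX2, a membrane thioredoxin-like protein (0.52), with adjusted p-values of 0.0199 to 0.0409 by edgeR. GPX8 passed in 8 of 16 alternatives.

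Other chaperones and glycan-trimming enzymes gave 1 higher and 3 lower of 19. SERPINH1, the collagen chaperone HSP47, rose by 0.54 on the log2 scale, and the prolyl isomerases FKBP7 and FKBP9 and the calnexin relative CLGN fell by 1.02, 1.15 and 1.55. FKBP9 stood at 91.3 CPM in FaDu replicate 1 against 48.2 and 47.9 CPM in FaDu replicates 2 and 3. Its log2 fold change ran from -1.31 to -0.77 over the alternatives. CLGN was low, at 1.14 to 2.00 CPM in FaDu, and lost its call in each analysis that left out a library. Other degradation factors were split, with 5 higher and 4 lower of 30. UBE2J2, a membrane ubiquitin-conjugating enzyme (0.97, adjusted p = 0.00788), and UFD1, a p97 cofactor (0.86, adjusted p = 0.0149), rose. RHBDD1, a rhomboid protease (fell by 0.78, adjusted p = 0.00883), and ERLIN2, a scaffold for degradation of the inositol trisphosphate receptor (fell by 0.99, adjusted p = 0.0146), fell.

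Of 13 tested other stress regulators, WFS1, which restrains ATF6 (0.94, adjusted p = 0.0299), and RTCB, the ligase that joins the cut XBP1 mRNA (0.64, adjusted p = 0.0302), were higher and none was lower. Of 17 genes of COPII vesicles and retrieval, only KDELR3 passed: this receptor for escaped ER proteins stood at 67.5, 68.8 and 73.4 CPM in FaDu and at 30.1, 30.7 and 37.4 CPM in shNSUN2 (log2 fold change -1.09, SE 0.13, adjusted p = 0.00208, edgeR). Of 6 receptors of ER-phagy, the autophagy of ER membrane, RETREG1 (FAM134B) and CALCOCO1 fell by 1.38 and 0.94 on the log2 scale (both adjusted p = 0.0146), and none rose. KDELR3, ASNS and TRIB3 passed in all 16 alternatives, as did SSR4, UBE2J2 and RHBDD1. The other genes named from these lists as rising or falling each lost the call on leaving out at least 1 library.

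**Figure D4:**
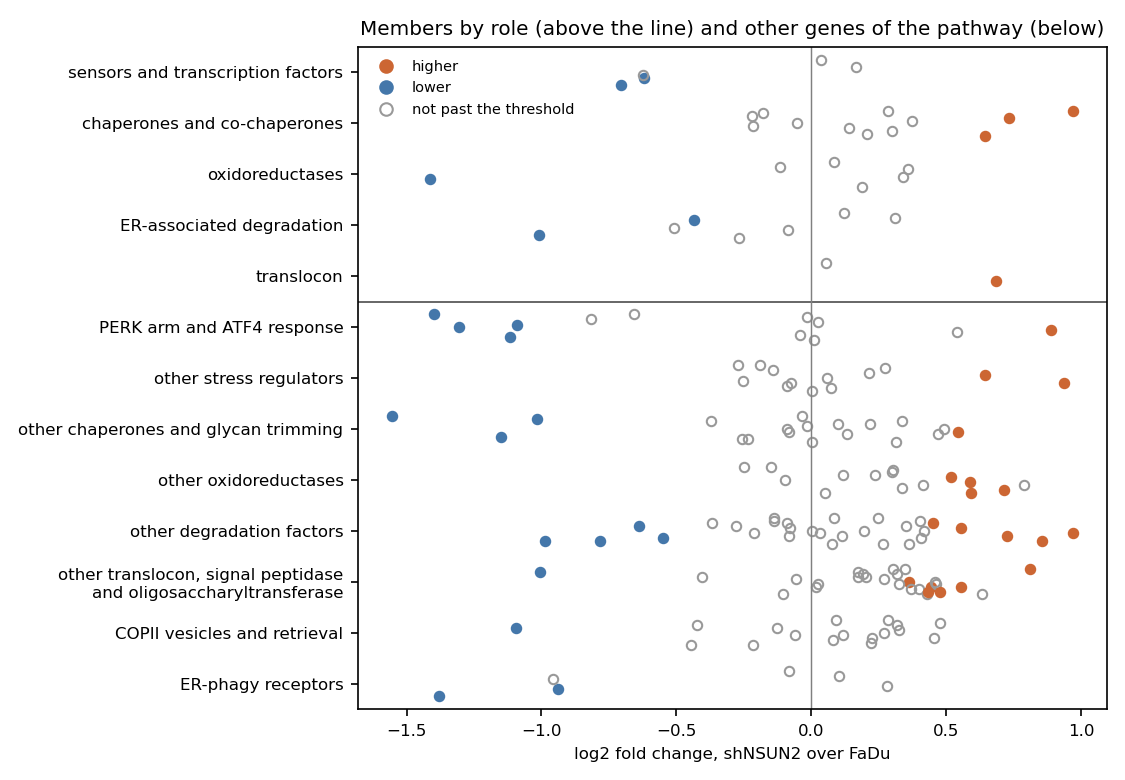
Log2 fold change (shNSUN2 over FaDu, horizontal axis) of every tested gene in the 5 member roles, above the line, and in the 8 further lists, below it, 1 point per gene and filled where the adjusted p is under 0.05. The member roles with no filled point above 0 are the sensors, the oxidoreductases and ER-associated degradation. Among the further lists, the COPII vesicles and ER-phagy receptors have none above 0. CLGN at -1.55 is the lowest filled point.

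Markers of other cell types differed between groups. The 14 plasma cell markers, from a secretory cell type rich in ER genes, summed to at most 0.267 CPM in FaDu (5 of 14 detected) and to 9.95, 2.31 and 3.23 CPM in shNSUN2 (13 of 14 detected); IGKC and IGHG1 were the most abundant, while CD79A was at 0 in shNSUN2, and MZB1 was at 0 in shNSUN2 replicates 2 and 3. The 10 prostate epithelial markers, whose tissue is also secretory, summed to 32.5 to 35.2 CPM in FaDu (9 of 10 detected) and to 55.0 to 74.3 CPM in shNSUN2 (10 of 10 detected); KLK3 and SLC45A3 were the most abundant in shNSUN2. The 10 smooth muscle markers summed to 73.8 to 77.6 CPM in FaDu (8 of 10 detected) and 57.1 to 75.6 CPM in shNSUN2 (10 of 10 detected), led by SMTN and MYLK. Among their 8 tested genes 3 were higher and 2 lower, where 8.54% of all tested genes were higher and 9.97% lower. DES rose from 0.0738 to 1.22 CPM, ACTG2 was at 0 in FaDu and at 0.723 CPM in shNSUN2, and TAGLN rose from 1.38 to 2.84 CPM. ACTA2 fell from 8.93 to 2.78 CPM and MYLK from 25.1 to 13.8 CPM. MYH11 stood at 8.29, 1.53 and 1.39 CPM in shNSUN2 against 0.992 CPM in FaDu and did not pass; these genes were singled out after their values were seen. The part of RNA from such cells in the members' values was not tested.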

How the data were processed

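The values are estimated counts per gene deposited by the authors in 1 table of 6 libraries, whole numbers that were used as they stand. Bowtie 0.12.2, HISAT2 2.0 and StringTie 1.3.0 stand in the submitters' processing notes with no role given, beside the mouse build mm8; the human build behind the counts is not given in the sources used here. In these values 4 is 3.25 to 3.81 times as frequent as the mean of 3 and 5, so the counting error of low values is larger than they appear to have, and no Poisson interval is given. Whether strand was kept is not stated. Symbols came from a gene name table and GENCODE 29 (58817 of 58825 identifiers), positions and exonic lengths from GENCODE 29 on GRCh38, and promoter windows from RefSeq.

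The test was edgeR 4.0.16 under R 4.3.3 (robust quasi-likelihood fit, TMM scaling, filterByExpr by group with a minimum count of 10 and minimum total of 15, design of group alone), with a two-sided call where the p-value, adjusted by Benjamini-Hochberg over 19081 genes, was under 0.05. The SE is the log2 fold change divided by the square root of F. The procedure was tested on simulated data. Alternatives were other scalings, DESeq2 1.42.0, limma-voom (limma 3.58.1), other filters, values divided by 4, offsets for GC content and length, a replicate block and leaving out each library. The text names all 33 members, NSUN2, ATF4, DDIT3 and up to 4 called genes with the smallest adjusted p of each further list; FAU, MRPL49, ALG12 and SMARCB1 are named as overlapping neighbours. The members and lists were chosen with earlier results of these data known.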

Additional observations from a re-analysis of the deposited data

How the results depend on the processing

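The counts past the threshold changed by more than 1.5 times with offsets for GC content and length and on leaving out any FaDu library. Leaving out shNSUN2 replicate 1 did so for all genes and for pathway genes, and the replicate block for pathway genes. With offsets for GC content and length, 14 members, 55 pathway genes and 5308 genes of 19081 passed. The members' call was lost for EDEM1 and gained for MANF, P4HB, PDIA4, PPIB, SELENOS and SEL1L. Leaving out 1 library in turn gave 3 to 11 members, 8 to 35 pathway genes, and 1354 to 4271 genes in all, and NSUN2 passed each time; where a group was left with 2 libraries, the spread was pooled over both groups. The cause of these shifts was not tested. No label says what libraries of the same number share. Deviations from the group mean correlated at -0.07, 0.06 and -0.03 for same-numbered libraries, and at -0.09 to 0.13 for the others. With 3 libraries a group, these values cannot show whether the numbers pair the samples. With the replicate block, 7 members (4 higher, 3 lower, without CREB3L2 and EDEM1), 19 pathway genes and 2370 genes passed, and with the offsets and the replicate block together 7 members, 40 pathway genes and 3737 genes. DESeq2 called 9 members and 4823 genes.

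The sign changed for values near 0. Over the analyses leaving out 1 library, the log2 fold change ran from -0.00978 to 0.374 for EIF2AK3, -0.0138 to 0.0721 for ATF6, -0.106 to 0.00489 for HSPA5, -0.00515 to 0.202 for DERL1, -0.290 to 0.00994 for DERL2, -0.0208 to 0.156 for SEC61A1 and -0.0482 to 0.131 for ATF4. With upper-quartile scaling it was -0.0429 for ATF6, -0.0270 for SEC61A1 and -0.0512 for ATF4. HSPA5 was at 0.0585 and DERL2 at 0.0705 with the offsets, and at 0.0569 and 0.0616 with offsets and block. ATF4 was at -0.00579 with no filter and -0.00167 with a minimum of 1 CPM.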
